A study of Mus musculus with 24 samples.

Results

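The 36 genes described here encode proteins of glycolysis and of pyruvate use in mouse embryonic stem cells: glucose transporters, glycolytic enzymes, lactate dehydrogenases and monocarboxylate transporters, the mitochondrial pyruvate carrier, pyruvate dehydrogenase subunits and the kinases that inhibit pyruvate dehydrogenase. They were taken by symbol from a list written for the pathway, with earlier results of these data known. Shares of members beside those of all genes are therefore descriptions and no independent test of the list. All 36 were found among the 35022 genes of the PD03 removal table and the 48709 genes of the CHIRON removal table, and all 36 passed the filter on low counts in both.

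RNA was sequenced from E14 mouse embryonic stem cells, whose genotype the labels give as 129m wt, grown on soft or stiff StemBond hydrogels, polyacrylamide gels with tethered fibronectin. Every culture first spent 12 h in 2i+LIF, a medium with the MEK inhibitor PD03 (1 µM), the GSK3 inhibitor CHIRON (3 µM) and the cytokine LIF. In one experiment PD03 was then removed, leaving CHIRON+LIF, and in the other CHIRON was removed, leaving PD03+LIF, so LIF was present in all groups. Cells were lysed at 0 h, still in 2i+LIF, and at 2 h and 12 h after removal, with 2 libraries for each substrate and time. The questions were what changed with time after each removal and whether the substrate altered it. No group was kept in 2i+LIF after 0 h, so an effect of the removal cannot be told apart from one of the time in culture or of the medium change. Of 24 libraries 23 were used: 1 of the CHIRON removal libraries on stiff at 2 h held only 171333 counts and was left out, so that group has 1 library, assumed to vary like the others. The other libraries held 16222196 to 26442153 counts after PD03 removal (median 19645600) and 19393787 to 31111260 after CHIRON removal (median 22984299). Nothing in the labels says whether replicates came from separate cultures, so p-values measure only the spread between these samples, which may be technical.

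Glycolysis splits glucose into pyruvate, which lactate dehydrogenase turns into lactate for export through monocarboxylate transporters, or which the mitochondrial carrier brings to the pyruvate dehydrogenase complex for oxidation. Pyruvate dehydrogenase kinases phosphorylate and inhibit that complex and so set how much pyruvate is oxidised. Mouse embryonic stem cells in the naive state are known to draw on both glycolysis and oxidative phosphorylation, and cells that leave this state are known to rely more on glycolysis.

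The label of the cells was checked against markers, in CPM, counts per 1000000 counts of the protein-coding genes tested with edgeR's TMM factors, the unit used throughout. Embryonic stem cell markers (Pou5f1, Sox2, Nanog, Zfp42, Esrrb, Sall4 and Utf1) were counted in every library, 7 of 7 genes, and summed to 4493 to 5122 CPM after PD03 removal and 4212 to 5307 CPM after CHIRON removal, with Esrrb the most abundant by median in both. Primitive endoderm markers (6 genes) summed to 3.35 to 5.35 CPM and 12.0 to 17.3 CPM, led by Pdgfra and Dab2 respectively, and Sox7 was at 0 in 6 of 12 PD03 removal libraries. Trophectoderm markers (6 genes) summed to 56.8 to 71.5 CPM and 69.7 to 98.5 CPM, led by Tfap2c, which embryonic stem cells also express. Among these genes Elf5 was at 0 in 4 of 12 libraries and Krt7 in 1 after PD03 removal, and Cdx2 in 1 of 11 after CHIRON removal. Fibroblast markers (6 genes) summed to 1.65 to 3.17 CPM and 3.84 to 6.78 CPM, led by Lum and Col1a1 respectively. Dcn, which defines fibroblasts, was at 0 in 11 of 12 and 8 of 11 libraries, Col3a1 in 6 and 3, Col1a2 in 2 of the PD03 removal libraries and Lum in 2 of the CHIRON removal libraries.

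Levels of the glycolysis genes were compared with each other per length, as CPM per kb of exon, in the 4 libraries at 0 h. Lengths were those of the annotated exons, and which transcripts the cells made was not tested, so orders per kb depend on these lengths. In the PD03 removal experiment 6 members had a median over 100 CPM per kb, 19 lay between 10 and 100 and 11 were under 10. By its own counts the aldolase gene Aldoa led at a level of 299 CPM per kb, followed by the pyruvate kinase gene Pkm at 239 CPM per kb, the glucose transporter Slc2a3 at 216 CPM per kb and the transporter chaperone Bsg at 215 CPM per kb. Ranges over the 4 libraries of Slc2a3 (209.5 to 220.3 CPM per kb) and Bsg (213 to 223 CPM per kb) overlapped, so the order of this pair was within their spread. In the CHIRON removal experiment 6 members were over 100 CPM per kb, 15 between 10 and 100 and 15 under 10, with Gapdh at 1005 CPM per kb, Aldoa at 296 CPM per kb and the enolase gene Eno1 at 253 CPM per kb. Slc16a3 had the lowest level of all members in both tables, 0.321 and 0.316 CPM per kb, next to the enolase gene Eno2 at 0.336 and 0.487 CPM per kb, and the ranges of this pair overlapped in both tables. Hk2 was the more abundant of the hexokinases, at 79.9 CPM per kb against 13.5 for Hk1 in the PD03 removal table and 47.5 against 22.0 in the CHIRON removal table. For lactate dehydrogenase, Ldhb was above Ldha per kb in the PD03 removal table (94.0 and 51.6 CPM per kb). In the CHIRON removal table their ranges overlapped (66.8 to 105 for Ldhb and 61.7 to 69.3 CPM per kb for Ldha). This order rests on the lengths used, 1570 bases for Ldhb and 3310 for Ldha. Not divided by length, Ldha was above Ldhb in both tables. Group means at 0 h on soft and stiff were 173 and 170 CPM for Ldha and 148 and 146 CPM for Ldhb in the PD03 removal table. In the CHIRON removal table they were 212 and 222 CPM for Ldha and 124 and 135 CPM for Ldhb. The experiments were counted in separate tables with different numbers of genes, 35022 after PD03 removal and 48709 after CHIRON removal. The paper names the same Ensembl release and the same version of featureCounts for both. Settings for strand and for reads that match several places are not given, and why the numbers of genes differ was not tested. Levels are therefore set side by side only, a difference between the tables may come from the counting, and none was tested.

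**Figure D1:**
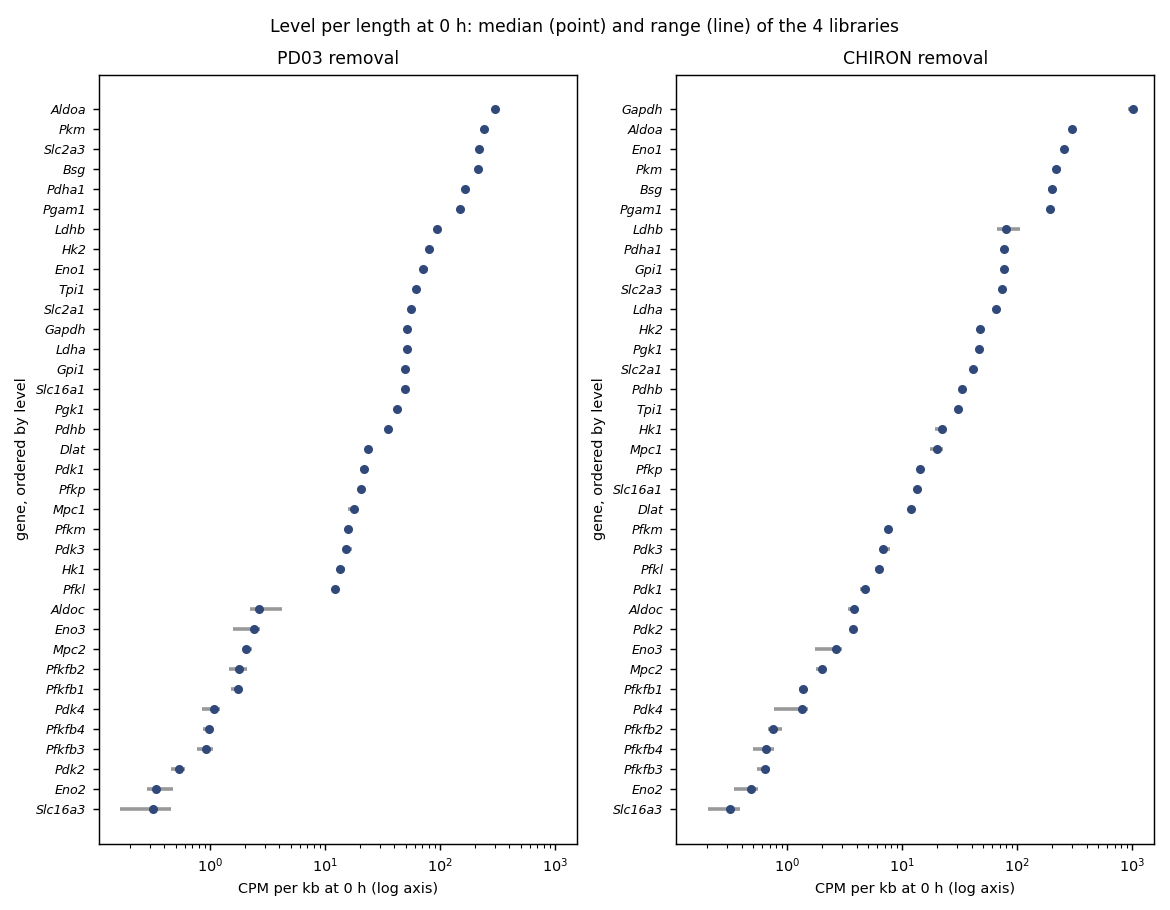
Level of each of the 36 genes at 0 h in CPM per kb (log axis), ordered by level, with the median as a point and the range of the 4 libraries as a line, for PD03 removal (left) and CHIRON removal (right). Counts of near-identical copies are not included. Aldoa led on the left at 299 CPM per kb, a lead that passed to Gapdh (598) when copies were added, Gapdh led on the right at 1005, and Slc16a3 was lowest in both.

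Some of the genes have near-identical copies in the genome, whose reads cannot be assigned with certainty. Of the members, 11 had annotated copies with at least 95% identity over at least 200 bases, 97 copies in all. Gapdh had 78 copies, 75 of them in the tables, and these copies held 91.3% of the counts of gene plus copies after PD03 removal and 55.7% after CHIRON removal. The phosphoglycerate kinase gene Pgk1 followed with 70.3% and 38.3%, and Eno1 with 69.7% and 37.1%. Mpc1, Pdhb, Gpi1, Pkm, Pgam1 and Ldhb had shares of 14.0% to 39.6% after PD03 removal and 1.26% to 22.8% after CHIRON removal. Tpi1 and Ldha had shares of 9.16% and 4.46% after PD03 removal and 2.68% and 1.88% after CHIRON removal, the smallest after PD03 removal, while the smallest after CHIRON removal was that of Ldhb (1.26%). How reads that match several places were counted is not given in the sources used here, so values of these 11 genes are uncertain. The order of levels at 0 h depended on it: with the counts of copies added to their gene, Gapdh led in both tables, at 598 CPM per kb in the PD03 removal table, above Pkm (332) and Aldoa (299), and at 2247 CPM per kb in the CHIRON removal table, above Eno1 (416) and Aldoa (296). The number of members over 100 CPM per kb then went from 6 to 10 in the PD03 removal table, with 15 between 10 and 100 and 11 under 10, and stayed at 6 in the CHIRON removal table. Strand use in counting is not given either, and some members overlap a gene on the opposite strand, among them Hk1 (Hk1os), Tpi1 (Spsb2), Gapdh (Iffo1), Aldoa (Fam57b), Hk2 (Gm17034), Pdk2 (Gm11513) and Pdha1 (Map3k15), whose reads may be shared.

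**Figure D2:**
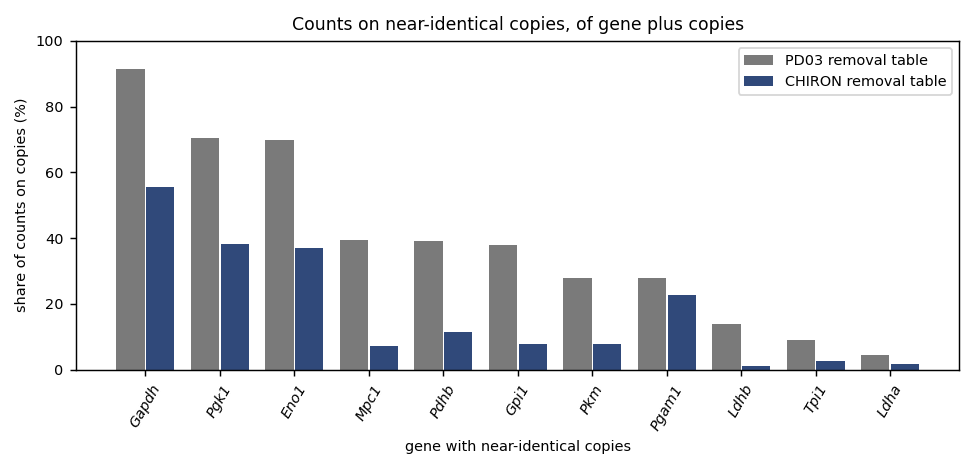
Share of counts (%) that fell on near-identical copies, of the counts of the gene plus its copies, for the 11 genes with copies in each table. The share was highest for Gapdh (91.3% and 55.7%) and lowest after PD03 removal for Ldha (4.46%).

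At 12 h after CHIRON removal more of these genes were higher than lower, on both substrates. At an edgeR adjusted p under 0.05, 12 of 36 members changed on soft (33.3%, where 17.8% of the 14615 genes tested changed), 9 of them higher (9.18% of all genes) and 3 lower (8.63%). On stiff 11 of 36 changed (30.6%, background 16.8%), 9 higher (8.46% of all genes) and 2 lower (8.33%). Both comparisons have 0 h libraries of their own substrate as reference. The median log2 fold change of the members was 0.13 on soft beside -0.01 for all genes, and 0.12 on stiff beside -0.01. On both substrates 7 members rose (Slc16a3, Tpi1, Pfkl, Ldha, Pdk2, Slc2a1 and Aldoa; 19.4% of the members beside 6.24% of all genes) and 2 fell (Pdk1 and Pdha1; 5.56% beside 5.8%). Of the others 3 changed on soft only (8.33% beside 5.77% of all genes), 2 on stiff only (5.56% beside 4.76%) and 22 on neither. On soft the members took 0.897% and 0.906% of counts at 0 h and 1.09% and 0.961% at 12 h, and on stiff 0.880% and 0.980% at 0 h and 0.987% and 1.07% at 12 h, higher with no overlap within each substrate. DESeq2 called 11 members on each substrate. With the library of 171333 counts kept, edgeR called 3 members on each, Slc16a3, Pfkl and Pdk1, of 3.18% and 3.2% of all genes, and the calls of Ldha, Tpi1 and Pdk2 were among those lost. Summed embryonic stem cell markers were also higher at 12 h, 5050 to 5307 CPM against 4369 to 4518 CPM at 0 h, as were summed trophectoderm markers, 91.7 to 98.5 CPM against 75.4 to 80.6 CPM. Within the stem cell markers Esrrb, the most abundant at 0 h, went the other way (soft: log2 fold change -0.30, edgeR adjusted p = 0.0159; stiff: -0.25, edgeR adjusted p = 0.0428), while Nanog rose most (0.63 and 0.76). Summed fibroblast markers were lower on stiff, 4.92 to 5.12 CPM against 5.26 to 5.49 CPM, and overlapped on soft, and those of primitive endoderm overlapped on both substrates. The part of these markers in the results was not tested. In bulk RNA, fewer cells with a transcript and less of it per cell cannot be told apart.

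**Figure D3:**
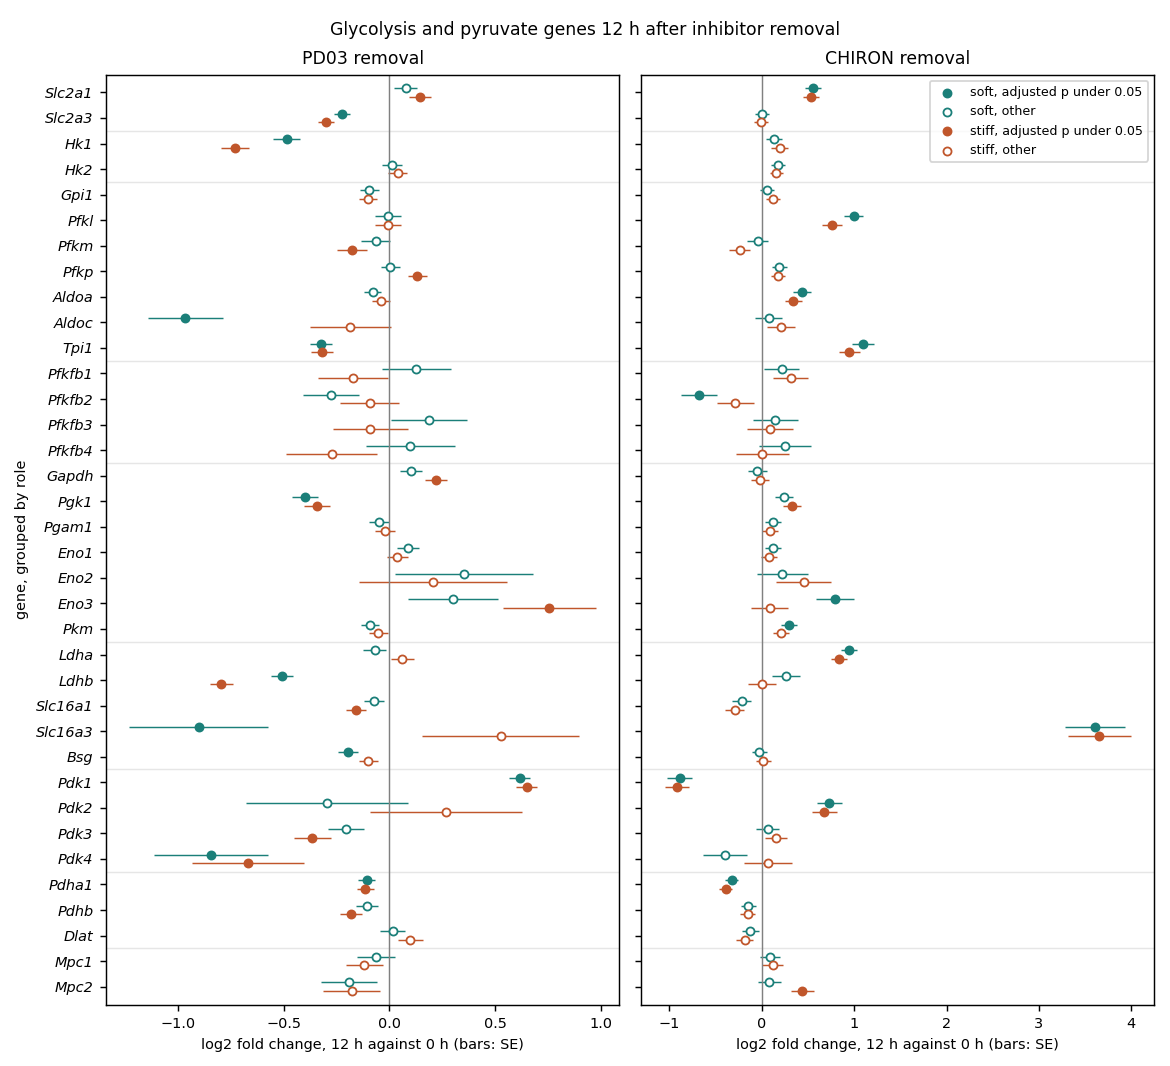
Log2 fold change at 12 h against 0 h for each of the 36 genes, grouped by role, on soft (green) and stiff (orange) after PD03 removal (left) and CHIRON removal (right, another axis range). Bars are standard errors and filled points passed an edgeR adjusted p of 0.05; Slc16a3 reached 3.61 and 3.65 after CHIRON removal.

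Slc16a3 (chr11:120948480-120960868, plus strand, mm10) encodes MCT4, a monocarboxylate transporter known for lactate export from glycolytic cells. It stood at 1.62 and 1.74 CPM on soft and 2.06 and 1.09 CPM on stiff at 0 h and at 2.56 and 0.911 CPM on soft and 1.34 CPM on stiff at 2 h. At 12 h Slc16a3 had 20.1 and 21.0 CPM on soft and 13.9 and 25.9 CPM on stiff. The counts behind these values were 33 and 40 (soft) and 38 and 20 (stiff) at 0 h, and 537 and 328 (soft) and 271 and 487 (stiff) at 12 h. All 4 libraries at 12 h lay above all 7 earlier ones, with no overlap. Its log2 fold change (± standard error) was 3.61 ± 0.328 on soft (edgeR adjusted p = 5.04e-07) and 3.65 ± 0.342 on stiff (edgeR adjusted p = 6.35e-07), the largest among the members. Slc16a1, its isozyme MCT1, had 59.4 and 56.3 CPM on soft and 62.2 and 59.8 CPM on stiff at 0 h and 45.0 and 55.1 CPM on soft and 56.1 CPM on stiff at 2 h. At 12 h Slc16a1 had 52.7 and 46.7 CPM on soft and 52.3 and 47.2 CPM on stiff. The 12 h values of Slc16a1 lay below those at 0 h on each substrate, but with log2 fold changes of -0.22 (edgeR adjusted p = 0.168) and -0.29 (edgeR adjusted p = 0.0597) it did not pass the test. Bsg, which encodes basigin, the chaperone of both transporters, had log2 fold changes of -0.03 and 0.01 (edgeR adjusted p = 0.861 and 0.928).

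The promoters of the 4 members with the largest size of change after CHIRON removal, by the mean over both substrates among those called on both, Slc16a3, Tpi1, Pdk1 and Ldha, are printed because these genes moved at the same time on both substrates, Pdk1 down and the other 3 up. They are RefSeq sequences of GRCm38.p6, 250 bases before to 50 bases after a start, 5′ to 3′ on the strand of the gene: chr11:120948817-120949116 (plus), chr6:124814109-124814408 (minus), chr2:71872974-71873273 (plus) and chr7:46845554-46845853 (plus). Capitals mark ACGTG on either strand, a form of the core of the hypoxia response element. The form GCGTG was not searched or marked, though it occurs in the printed windows of Pdk1 and Ldha. CACGTG, the E-box of MYC family proteins, holds ACGTG on both strands, so every CACGTG is also counted as ACGTG. Slc16a3 held 2 matches, whose first bases lay 27 and 14 bases before the start, Ldha held 5 matches in 3 stretches between 145 and 34 bases before the start, 2 of the stretches being CACGTG, and the printed windows of Tpi1 and Pdk1 held 0. Ldha and Pdk1 each had a second RefSeq promoter, chr7:46846832-46847131 (plus) and chr2:71874654-71874953 (plus), not printed, and each of these held 0 matches.
Slc16a3: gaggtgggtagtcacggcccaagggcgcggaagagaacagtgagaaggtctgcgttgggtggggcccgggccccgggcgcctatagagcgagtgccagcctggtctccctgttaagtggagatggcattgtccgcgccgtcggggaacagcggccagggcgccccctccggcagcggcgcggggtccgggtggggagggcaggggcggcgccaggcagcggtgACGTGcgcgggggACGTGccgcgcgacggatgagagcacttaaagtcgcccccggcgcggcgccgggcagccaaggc
Tpi1: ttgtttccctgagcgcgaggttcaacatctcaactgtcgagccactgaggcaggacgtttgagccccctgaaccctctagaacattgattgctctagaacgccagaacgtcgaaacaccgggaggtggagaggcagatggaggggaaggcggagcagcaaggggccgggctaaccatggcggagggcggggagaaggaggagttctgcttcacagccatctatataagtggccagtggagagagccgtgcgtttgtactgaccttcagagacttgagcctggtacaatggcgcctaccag
Pdk1: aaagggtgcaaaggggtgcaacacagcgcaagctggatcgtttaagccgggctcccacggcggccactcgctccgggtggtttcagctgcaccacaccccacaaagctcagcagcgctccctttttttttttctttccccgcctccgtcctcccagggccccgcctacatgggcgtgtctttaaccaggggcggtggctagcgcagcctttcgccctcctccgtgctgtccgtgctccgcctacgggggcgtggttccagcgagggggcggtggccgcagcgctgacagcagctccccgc
Ldha: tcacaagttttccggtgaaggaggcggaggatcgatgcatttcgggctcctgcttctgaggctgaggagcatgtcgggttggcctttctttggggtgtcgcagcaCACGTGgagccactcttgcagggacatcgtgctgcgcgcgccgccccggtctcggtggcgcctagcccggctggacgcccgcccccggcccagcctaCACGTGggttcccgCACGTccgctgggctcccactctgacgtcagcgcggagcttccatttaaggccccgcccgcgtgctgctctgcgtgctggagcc

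Of the 36 members 34 had a RefSeq promoter entry (Bsg and Slc2a3 had none), with 54 promoters among them. ACGTG was found on either strand in 22 of the 54 (40.7%), from 18 members, beside 19.6% of all 32851 promoters of the same length. CACGTG was in 6 (11.1%, beside 7.15%), and CCGGAA, the core letters bound by ETS factors, in 7 (13.0%, beside 14.9%). CTTTGAT, letters bound by TCF/LEF factors, was in 0 of the 54 (0%, beside 3.73%). Some of the 54 windows overlap, as for Aldoa and Eno1, so they are not separate, and no share by gene was made for all promoters. Base composition was not taken into account. A match describes letters in this window and says nothing of binding.

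Lactate dehydrogenase A, encoded by Ldha (chr7:46841475-46855627, plus strand), favours the step from pyruvate to lactate. Ldha had 219.8 and 204 CPM on soft and 215 and 229 CPM on stiff at 0 h and 199 and 200.4 CPM on soft and 226 CPM on stiff at 2 h. At 12 h Ldha had 422 and 395 CPM on soft and 358 and 436 CPM on stiff. Every library at 12 h was higher than every earlier one. The log2 fold change was 0.95 ± 0.0902 on soft (edgeR adjusted p = 8.27e-07) and 0.84 ± 0.0902 on stiff (edgeR adjusted p = 3.21e-06). Ldhb, the B subunit, had 127 and 121 CPM on soft and 105 and 166 CPM on stiff at 0 h and 129 and 113 CPM on soft and 157 CPM on stiff at 2 h. At 12 h Ldhb had 164 and 132 CPM on soft and 123 and 148 CPM on stiff. The 0 h and 12 h groups of Ldhb overlapped on stiff, where replicates at 0 h lay far apart, and its log2 fold changes of 0.26 and 0.01 did not pass the test (edgeR adjusted p = 0.269 and 0.986).

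In upper glycolysis 3 of 7 members rose on each substrate, Tpi1, Pfkl and Aldoa, beside 9.18% of all genes on soft and 8.46% on stiff. Triosephosphate isomerase, encoded by Tpi1 (chr6:124810586-124814296, minus strand), interconverts the triose phosphates that aldolase makes. Tpi1 had 83.7 and 79.3 CPM on soft and 85.4 and 85.6 CPM on stiff at 0 h and 80.2 and 67.6 CPM on soft and 78.4 CPM on stiff at 2 h. At 12 h Tpi1 had 183 and 166 CPM on soft and 139.7 and 190.3 CPM on stiff. The 12 h libraries were all above the earlier 7, and log2 fold changes were 1.10 ± 0.115 on soft (edgeR adjusted p = 2.5e-06) and 0.95 ± 0.116 on stiff (edgeR adjusted p = 1.31e-05). Pfkl (chr10:77986947-78010083, minus strand) encodes the liver-type subunit of phosphofructokinase, which commits sugar to glycolysis. Its values were 39.7 and 38.9 CPM on soft and 44.0 and 45.5 CPM on stiff at 0 h and 39.1 and 38.7 CPM on soft and 38.2 CPM on stiff at 2 h. At 12 h Pfkl had 81.0 and 75.2 CPM on soft and 65.8 and 85.5 CPM on stiff. Again no 12 h library overlapped an earlier one, and Pfkl rose by a log2 fold change of 0.99 ± 0.106 on soft (edgeR adjusted p = 2.96e-06) and 0.76 ± 0.106 on stiff (edgeR adjusted p = 5.75e-05). The other phosphofructokinase subunits did not pass the test.

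Pfkm, the muscle-type subunit, had 24.4 and 24.3 CPM on soft and 26.2 and 25.3 CPM on stiff at 0 h and 21.2 and 26.5 CPM on soft and 22.1 and 21.6 CPM on stiff at 12 h (log2 fold changes -0.04 and -0.24, edgeR adjusted p = 0.850 and 0.181). Pfkp, the platelet-type subunit, had 186 and 191 CPM on soft and 189 and 191 CPM on stiff at 0 h and 206 and 225 CPM on soft and 215 and 214 CPM on stiff at 12 h (log2 fold changes 0.19 and 0.17, edgeR adjusted p = 0.111 and 0.151). Aldoa, which splits fructose 1,6-bisphosphate, rose by 0.44 ± 0.0956 on soft (edgeR adjusted p = 0.00363) and 0.34 ± 0.0956 on stiff (edgeR adjusted p = 0.0185) on the log2 scale, and its call on stiff was lost without replicate 1 at 0 h (0.27, edgeR adjusted p = 0.124) or replicate 2 at 12 h (0.23, edgeR adjusted p = 0.260). Slc2a1, which encodes the glucose transporter GLUT1, rose by 0.55 ± 0.0876 on soft (edgeR adjusted p = 0.000222) and 0.53 ± 0.0879 on stiff (edgeR adjusted p = 0.000322), while Slc2a3, which encodes GLUT3, had log2 fold changes of 0.00 and -0.01 (edgeR adjusted p = 0.999 and 0.947).

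**Figure D4:**
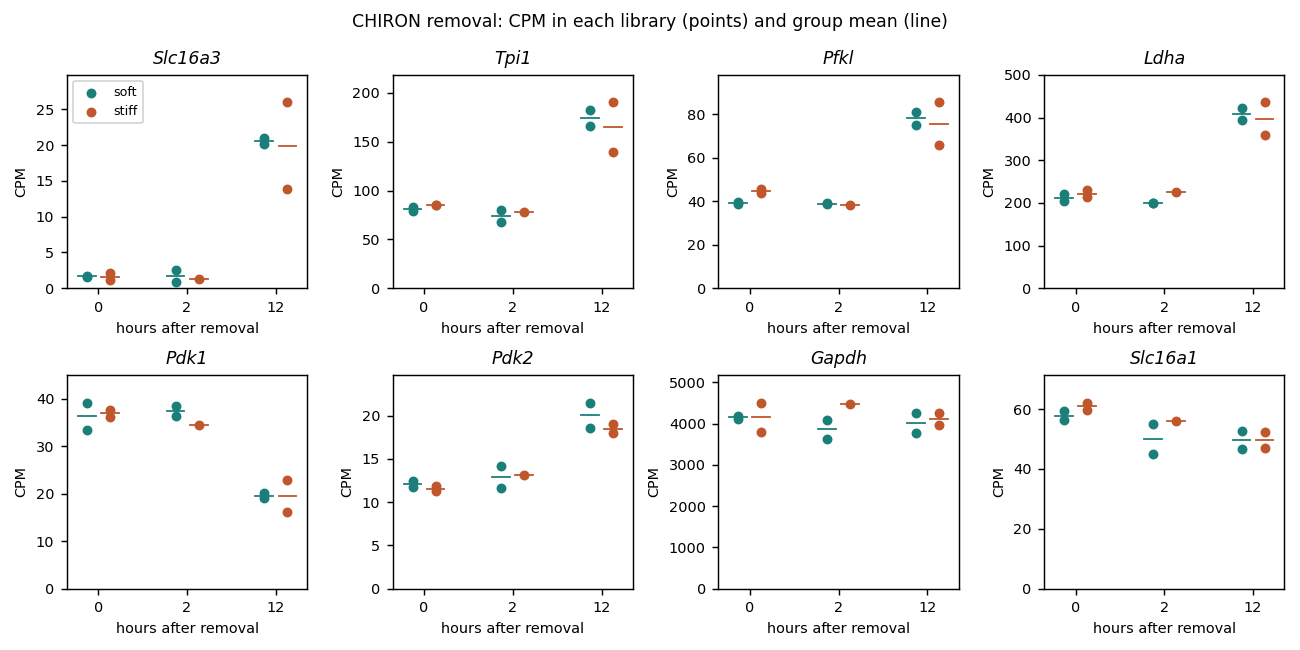
CPM in each CHIRON removal library (points) and group means (lines) by hours after removal, on soft (green) and stiff (orange), for 8 genes. At 12 h Slc16a3 lay between 13.9 and 25.9 CPM against at most 2.56 CPM before, Pdk1 lay below all earlier libraries, and the 0 h and 12 h groups of Gapdh overlapped.

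The pyruvate dehydrogenase kinases moved in both directions. Pdk1 (chr2:71873224-71903858, plus strand), a kinase known as a target of hypoxia signalling, had 33.4 and 39.2 CPM on soft and 37.7 and 36.2 CPM on stiff at 0 h and 36.3 and 38.5 CPM on soft and 34.6 CPM on stiff at 2 h. At 12 h Pdk1 had 20.1 and 19.0 CPM on soft and 16.2 and 22.9 CPM on stiff. All 12 h libraries were below all earlier ones, and the log2 fold change was -0.89 ± 0.132 on soft (edgeR adjusted p = 0.000106) and -0.92 ± 0.133 on stiff (edgeR adjusted p = 8.3e-05). For its isozyme Pdk2, values were 11.7 and 12.5 CPM on soft and 11.3 and 11.8 CPM on stiff at 0 h and 14.2 and 11.6 CPM on soft and 13.2 CPM on stiff at 2 h. At 12 h Pdk2 had 21.5 and 18.6 CPM on soft and 18.0 and 19.0 CPM on stiff. Here the 12 h libraries were above all others, with log2 fold changes of 0.73 ± 0.131 on soft (edgeR adjusted p = 0.000666) and 0.68 ± 0.135 on stiff (edgeR adjusted p = 0.00168). Pdk3 had log2 fold changes of 0.06 and 0.16 and Pdk4 of -0.40 and 0.07, with edgeR adjusted p = 0.784 and 0.445 for Pdk3 and 0.291 and 0.904 for Pdk4. Pdha1, the catalytic alpha subunit that these kinases phosphorylate, fell by a log2 fold change of -0.33 ± 0.0709 on soft (edgeR adjusted p = 0.00351) and -0.39 ± 0.0710 on stiff (edgeR adjusted p = 0.000740), and on soft the call was lost without replicate 2 at 0 h (-0.30, edgeR adjusted p = 0.0541). Pdhb and Dlat, which encode the beta subunit and the acetyltransferase of the complex, did not pass the test, with log2 fold changes from -0.19 to -0.12.

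Gapdh, the glycolytic dehydrogenase that the study used as its qPCR reference, was counted at 4188 and 4120.0 CPM on soft and 3802 and 4507 CPM on stiff at 0 h and 4094 and 3636 CPM on soft and 4486 CPM on stiff at 2 h. At 12 h Gapdh had 4267 and 3775 CPM on soft and 3955 and 4263 CPM on stiff. Its 0 h and 12 h groups overlapped on both substrates, and log2 fold changes were -0.05 ± 0.0992 on soft (edgeR adjusted p = 0.802) and -0.02 ± 0.0992 on stiff (edgeR adjusted p = 0.939). The sign of Gapdh was not stable: it was above 0 on soft without replicate 2 at 12 h (0.04), and on stiff without replicate 2 at 0 h (0.12), without replicate 1 at 12 h (0.04), with all genes in the fit, with a block for the number that ends the name of the tube in its description, or with the counts of copies added. Elsewhere in lower glycolysis Pkm and the muscle enolase gene Eno3 were called on soft only (log2 fold changes 0.29 and 0.79) and Pgk1 on stiff only (0.33). Pfkfb2, a kinase and phosphatase of fructose 2,6-bisphosphate, was lower on soft only (-0.68), and Mpc2, of the mitochondrial pyruvate carrier, higher on stiff only (0.44). Each of these 5 calls was lost when a single library was left out: those of Pkm and Pfkfb2 without any 1 of the 4 libraries compared, that of Eno3 without replicate 1 at 0 h or 2 at 12 h, of Pgk1 without replicate 1 at 0 h or 2 at 12 h, and of Mpc2 without replicate 2 at 0 h or at 12 h. DESeq2 did not call Pfkfb2 (DESeq2 adjusted p = 0.0645). The difference in response between substrates had an edgeR adjusted p of 1.0 for every member at 12 h, so these effects were not shown to differ between soft and stiff. The 22 members called on neither substrate had log2 fold changes from -0.40 to 0.45.

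At 2 h after CHIRON removal edgeR called 0 members on soft (0.226% of all genes called) and 0 on stiff (0.103%), and DESeq2 0 on each. At an unadjusted p under 0.05 there were 2 and 1 members (5.56% and 2.78%, beside 9.09% and 6.97% of all genes). The median log2 fold change of members was -0.05 and -0.04, beside 0.00 for all genes on each. Between soft and stiff, edgeR called 0 members at 0 h (0% of all genes), 0 at 2 h (0%) and 0 at 12 h (0%), and DESeq2 0 at each time, with 2, 1 and 0 members at an unadjusted p under 0.05 (beside 3.48%, 5.73% and 3.22% of all genes). The soft minus stiff difference in response likewise gave 0 members at 2 h (0% of all genes) and 0 at 12 h (0%), with 0 by DESeq2 and 1 member at an unadjusted p under 0.05 at each time (beside 3.09% and 2.84% of all genes). Standard errors of the members had a median of 0.104 at 12 h on soft and 0.147 for the difference in response (log2 scale), so a difference in response of that size could not be told from the spread.

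After PD03 removal more of the 36 genes fell than rose by 12 h. On soft 11 changed (30.6%, where 29.4% of the 13423 genes tested changed), 1 higher (14.1% of all genes) and 10 lower (15.3%). On stiff 16 changed (44.4%, background 38.4%), 5 higher (18.5% of all genes) and 11 lower (19.9%). The total shares were near the background. The median log2 fold change of the members was -0.08 on soft and -0.10 on stiff, beside 0.00 for all genes on each. On both substrates 1 member rose (Pdk1; 2.78% of the members beside 11.4% of all genes) and 7 fell (Pdk4, Ldhb, Hk1, Pgk1, Tpi1, Slc2a3 and Pdha1; 19.4% beside 12.4%). Another 3 changed on soft only (8.33% beside 5.54% of all genes), 8 on stiff only (22.2% beside 14.6%) and 17 on neither. DESeq2 called 8 members on soft and 13 on stiff. The stiff count was 9 without replicate 1 at 0 h, 10 without replicate 1 at 12 h and 10 without replicate 2 at 12 h. Members took 0.639% to 0.657% of counts at 0 h and 0.589% to 0.599% at 12 h, with no overlap. Protein-coding genes also took a smaller share of counts at 12 h, 73.1% to 74.5% against 76.7% to 77.5% at 0 h, and embryonic stem cell markers summed to 4493 to 4679 CPM against 4750 to 4935 CPM. Within that sum Nanog fell most (log2 fold change -0.38 for soft and -0.55 for stiff), while Utf1 (1.31 and 1.70) and Sall4 (0.38 and 0.47) rose. Summed trophectoderm markers were lower as well, 67.2 to 67.5 CPM at 12 h against 69.2 to 70.2 CPM at 0 h on soft and 56.8 to 60.5 CPM against 69.2 to 71.5 CPM on stiff. Summed fibroblast markers were higher on stiff, 2.64 to 3.17 CPM against 1.96 to 2.08 CPM, and overlapped on soft, while those of primitive endoderm overlapped on stiff and on soft were 4.429 to 5.23 CPM against 3.99 to 4.426 CPM. The part of these shifts in the results was not tested.

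Among the hexokinases, which trap glucose as glucose 6-phosphate, Hk1 fell and differed between substrates. Hk1 (chr10:62268855-62379908, minus strand) had 117 and 126 CPM on soft and 113 and 114 CPM on stiff at 0 h and 116 and 117 CPM on soft and 105 and 121 CPM on stiff at 2 h. At 12 h Hk1 had 82.0 and 91.2 CPM on soft and 68.5 and 67.9 CPM on stiff. All 12 h libraries lay below all earlier ones, and both stiff libraries at 12 h lay below both soft ones. The log2 fold change was -0.49 ± 0.0633 on soft (edgeR adjusted p = 9.1e-07) and -0.73 ± 0.0662 on stiff (edgeR adjusted p = 6.47e-10). Soft exceeded stiff at 12 h by 0.35 ± 0.0686 (edgeR adjusted p = 0.00811), a call lost without soft replicate 2 (0.27, edgeR adjusted p = 0.282), stiff replicate 1 (0.36, 0.108) or stiff replicate 2 (0.34, 0.116). The difference in response from 0 to 12 h was 0.24 ± 0.0917 and did not pass the test (edgeR adjusted p = 0.626). Hk2, the more abundant isozyme, had 469 and 499 CPM on soft and 465 and 485 CPM on stiff at 0 h and 493 and 526 CPM on soft and 489 and 511 CPM on stiff at 2 h. At 12 h Hk2 had 481 and 494 CPM on soft and 480.5 and 496 CPM on stiff. Its 0 h and 12 h groups overlapped on each substrate and its log2 fold changes at 12 h were 0.01 and 0.04 (edgeR adjusted p = 0.871 and 0.542).

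Ldhb (chr6:142490249-142507957, minus strand), the lactate dehydrogenase subunit that favours pyruvate formation, was also lower at 12 h and differed between substrates. Its values were 149.8 and 146 CPM on soft and 143 and 149 CPM on stiff at 0 h and 144 and 151 CPM on soft and 141 and 129 CPM on stiff at 2 h. At 12 h Ldhb had 104 and 104 CPM on soft and 83.0 and 85.8 CPM on stiff. Libraries at 12 h were below all earlier ones, lowest on stiff, with no overlap between substrates at that time. The log2 fold change was -0.51 ± 0.0536 on soft (edgeR adjusted p = 2.33e-08) and -0.80 ± 0.0555 on stiff (edgeR adjusted p = 3.61e-12). At 12 h soft exceeded stiff by 0.30 ± 0.0575 (edgeR adjusted p = 0.00633), a call lost when any 1 of the 4 libraries was left out (0.31 without soft replicate 1, 0.30 without soft replicate 2, 0.28 without stiff replicate 1 and 0.33 without stiff replicate 2, edgeR adjusted p from 0.0551 to 0.125). The difference in response was 0.29 ± 0.0773 (edgeR adjusted p = 0.426). Ldha had 177 and 169 CPM on soft and 172 and 168 CPM on stiff at 0 h and 152 and 167 CPM on soft and 179 and 179 CPM on stiff at 2 h. At 12 h Ldha had 165 and 166 CPM on soft and 187 and 168 CPM on stiff. Its log2 fold changes at 12 h of -0.07 and 0.06 did not pass the test (edgeR adjusted p = 0.364 and 0.399).

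Tpi1 and Pgk1, whose enzyme makes the first ATP of glycolysis, fell on both substrates. Tpi1 had 172 and 174 CPM on soft and 162 and 165 CPM on stiff at 0 h and 143 and 159 CPM on soft and 155 and 160.2 CPM on stiff at 2 h. At 12 h Tpi1 had 135 and 141 CPM on soft and 132 and 129.9 CPM on stiff. Its 12 h libraries lay below all the others, with log2 fold changes of -0.33 ± 0.0516 on soft (edgeR adjusted p = 1.75e-05) and -0.32 ± 0.0524 on stiff (edgeR adjusted p = 1.74e-05). Pgk1 (chrX:106187100-106203699, plus strand) had 95.2 and 100.3 CPM on soft and 92.6 and 94.3 CPM on stiff at 0 h and 91.6 and 98.0 CPM on soft and 97.9 and 87.6 CPM on stiff at 2 h. At 12 h Pgk1 had 72.5 and 75.5 CPM on soft and 73.3 and 74.3 CPM on stiff. No 12 h value reached the earlier ones, and the log2 fold change was -0.40 ± 0.0609 on soft (edgeR adjusted p = 1.02e-05) and -0.34 ± 0.0618 on stiff (edgeR adjusted p = 6.36e-05). Tpi1 thus moved down here and up after CHIRON removal, each against the 0 h libraries of its own experiment, and the difference between the experiments was not tested.

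Pdk1 was the member that rose on both substrates after PD03 removal. It had 157 and 165 CPM on soft and 175 and 170.4 CPM on stiff at 0 h and 196 and 210.1 CPM on soft and 203 and 193 CPM on stiff at 2 h. At 12 h Pdk1 had 253 and 242 CPM on soft and 272 and 269.5 CPM on stiff. The 3 times did not overlap on either substrate. The log2 fold change at 12 h was 0.62 ± 0.0497 on soft (edgeR adjusted p = 1.45e-10) and 0.65 ± 0.0495 on stiff (edgeR adjusted p = 2.1e-11). Pdk4, another of the kinases, had 4.31 and 2.98 CPM on soft and 3.64 and 4.02 CPM on stiff at 0 h and 3.92 and 3.02 CPM on soft and 4.43 and 5.18 CPM on stiff at 2 h. At 12 h Pdk4 had 2.34 and 1.76 CPM on soft and 2.88 and 1.90 CPM on stiff. Each library held 23 to 82 counts of Pdk4. Values at 12 h were below those at 0 h on both substrates, by log2 fold changes of -0.84 ± 0.270 on soft (edgeR adjusted p = 0.0184) and -0.67 ± 0.264 on stiff (edgeR adjusted p = 0.0454), but DESeq2 called it on neither (DESeq2 adjusted p = 0.067 and 0.138). Without soft replicate 1 at 0 h (-0.54, edgeR adjusted p = 0.262) or soft replicate 2 at 12 h (-0.65, 0.176) the call on soft was lost. That on stiff was lost without replicate 1 at 0 h (-0.73, edgeR adjusted p = 0.0706), replicate 2 at 0 h (-0.59, 0.192) or replicate 2 at 12 h (-0.42, 0.342), and with all genes in the fit (-0.66, 0.0563).

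Pdk3, also a kinase of the complex, had 38.2 and 40.3 CPM on soft and 44.0 and 37.4 CPM on stiff at 0 h and 35.3 and 32.8 CPM on soft and 31.3 and 31.6 CPM on stiff at 12 h. It was called lower on stiff (-0.36 ± 0.0858, edgeR adjusted p = 0.00124) but not on soft (-0.20 ± 0.0839, edgeR adjusted p = 0.0654), with a difference in response of 0.16 (edgeR adjusted p = 0.871). Pdk2 held 11 to 38 counts in each library and had log2 fold changes of -0.30 and 0.27 (edgeR adjusted p = 0.605 and 0.599). Pdk1 and Pdk4 were thus called in opposite directions within the kinases, which are known to have the same target.

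**Figure D5:**
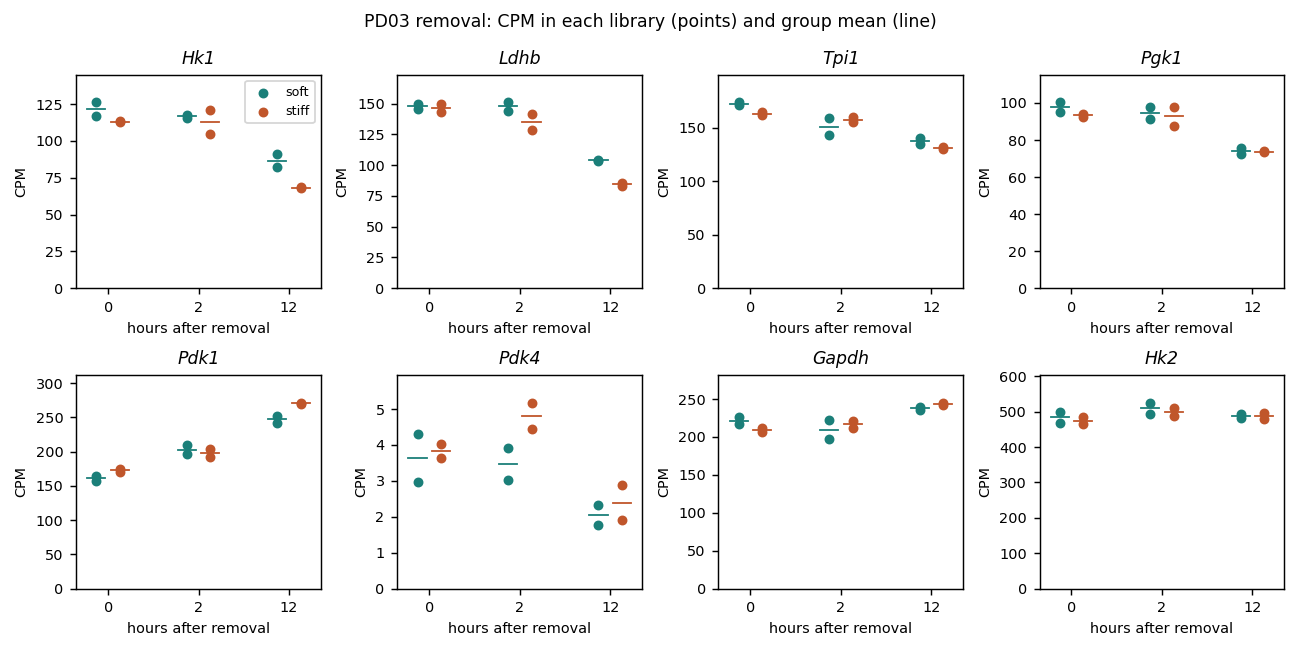
CPM in each PD03 removal library (points) and group means (lines) by hours after removal, on soft (green) and stiff (orange), for 8 genes. Hk1 and Ldhb fell by 12 h and were lowest on stiff, Pdk1 rose at each time to between 242 and 272 CPM, and the 0 h and 12 h groups of Hk2 overlapped.

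Gapdh had 227 and 217 CPM on soft and 212 and 207 CPM on stiff at 0 h and 222 and 197 CPM on soft and 221 and 212 CPM on stiff at 2 h. At 12 h Gapdh had 239.7 and 236 CPM on soft and 245 and 243 CPM on stiff. Its 12 h libraries were the highest on each substrate, and Gapdh passed the test on stiff (0.22 ± 0.0514, edgeR adjusted p = 0.00117) but not on soft (0.10 ± 0.0511, edgeR adjusted p = 0.140), with a difference in response of -0.12 (edgeR adjusted p = 0.811). With the counts of its copies added, the log2 fold change on stiff was 0.06 (edgeR adjusted p = 0.257) and the call was lost.

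Slc2a3 fell by a log2 fold change of -0.22 ± 0.0366 on soft (edgeR adjusted p = 2.64e-05) and -0.30 ± 0.0367 on stiff (edgeR adjusted p = 1.83e-07). Pdha1 fell by -0.11 ± 0.0405 (edgeR adjusted p = 0.0471) and -0.11 ± 0.0406 (edgeR adjusted p = 0.0262), calls that were lost when any 1 of the 4 libraries compared was left out (log2 fold changes -0.13 to -0.08 on soft and -0.13 to -0.10 on stiff). Called on soft only were Aldoc, the brain-type aldolase (-0.97), Slc16a3 (-0.90, from 14 to 39 counts in each library) and Bsg (-0.20). On stiff Slc16a3 had a log2 fold change of 0.53 (edgeR adjusted p = 0.278), and soft differed from stiff by 1.19 at 0 h (edgeR adjusted p = 0.342) and by -1.43 in response (edgeR adjusted p = 0.601), which did not pass the test. The call of Slc16a3 on soft was lost without any 1 of the 4 libraries and under DESeq2 (DESeq2 adjusted p = 0.154). On stiff only, besides Gapdh and Pdk3, Eno3 (0.76), Slc2a1 (0.14) and Pfkp (0.13) were higher and Pdhb (-0.18), Pfkm (-0.18) and the transporter Slc16a1 (-0.16) lower. Of these 6 calls those of Slc2a1, Pfkp and Pfkm were lost without any 1 of the 4 libraries, of Eno3 without replicate 1 at 0 h or 2 at 12 h, of Pdhb without replicate 1 at 0 h or at 12 h, and of Slc16a1 without replicate 1 at 12 h. No member passed the test of a difference in response at 12 h, where the smallest edgeR adjusted p was 0.426. The 17 members called on neither substrate had log2 fold changes from -0.30 to 0.35.

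At 2 h after PD03 removal the changes were few. On soft 2 of 36 members were called (1.96% of all genes), Pdk1 higher and Tpi1 lower, and on stiff 1 (2.73% of all genes), Pdk1. Medians over the members were -0.02 on soft and 0.03 on stiff (log2 scale), beside 0.00 for all genes on each, with 1 member called by DESeq2 on each and 7 and 6 at an unadjusted p under 0.05 (19.4% and 16.7%, beside 11.8% and 13.2% of all genes). Pdk1 had a log2 fold change at 2 h of 0.33 ± 0.0505 on soft (edgeR adjusted p = 9.52e-05) and 0.20 ± 0.0499 on stiff (edgeR adjusted p = 0.0207). The call of Pdk1 on stiff was lost without replicate 1 at 0 h (0.22, edgeR adjusted p = 0.0823), replicate 2 at 0 h (0.18, 0.206) or replicate 1 at 2 h (0.16, 0.219), and when only the groups compared were fitted (0.20, 0.0607). Tpi1 changed by -0.19 ± 0.0517 on soft (edgeR adjusted p = 0.0425), a call lost under DESeq2 (DESeq2 adjusted p = 0.084), with all genes in the fit (edgeR adjusted p = 0.0569), and without soft replicate 1 at 0 h (-0.20, 0.181), soft replicate 2 at 0 h (-0.18, 0.253) or soft replicate 1 at 2 h (-0.12, 0.508). On stiff Tpi1 had a log2 fold change of -0.05 (edgeR adjusted p = 0.730) and a difference in response of -0.14 (edgeR adjusted p = 0.992).

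Between soft and stiff in the PD03 removal experiment edgeR called 0 members at 0 h (0.0298% of all genes), 0 at 2 h (0.134%) and 2 at 12 h (0.767%), Hk1 and Ldhb as given above, and DESeq2 called 0, 0 and 2. At an unadjusted p under 0.05 there were 4, 9 and 4 members (11.1%, 25% and 11.1%, beside 7.22%, 8.55% and 9.65% of all genes). The difference in response gave 0 members at 2 h (0.00745% of all genes) and 0 at 12 h (0%) with edgeR, 0 with DESeq2 at each time, and 6 and 4 members at an unadjusted p under 0.05 (16.7% and 11.1%, beside 4.51% and 6.71% of all genes). The count of 2 at 12 h was 1 without soft replicate 1 and 0 without soft replicate 2, stiff replicate 1 or stiff replicate 2.

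Genes next to these pathways, in lists chosen by function, were described by counts at 12 h, each against 0 h and at an edgeR adjusted p under 0.05. By the same rule 14.1% of all genes rose and 15.3% fell on soft and 18.5% and 19.9% on stiff after PD03 removal, and 9.18% and 8.63% on soft and 8.46% and 8.33% on stiff after CHIRON removal. The lists are small and were also chosen with earlier results of these data known, and no list was tested against these shares. No gene of any list was called in the difference in response at 12 h, so responses were not shown to differ between soft and stiff. Of 7 pentose phosphate genes 0 rose and 3 fell on soft and 1 rose and 4 fell on stiff after PD03 removal, and 1 fell on each substrate after CHIRON removal, with medians of -0.16, -0.21, 0.00 and 0.01. Rpe, the ribulose phosphate epimerase, was lower in both experiments (log2 fold changes -0.42 and -0.39 after PD03 removal, -0.62 and -0.65 after CHIRON removal, soft and stiff). Of 17 TCA cycle genes 1 rose and 6 fell on soft and 1 rose and 9 fell on stiff after PD03 removal, beside 29.4% and 38.4% of all genes changed, among them the succinyl-CoA ligase subunit Sucla2 (-0.31 and -0.41) and the succinate dehydrogenase subunit Sdhb (-0.33 and -0.24). After CHIRON removal 1 of the 17 fell on soft and 0 changed on stiff by edgeR. Of 8 genes of the serine and one-carbon branch 2 rose and 0 fell on soft and 1 rose and 2 fell on stiff after PD03 removal, and 0 rose and 2 and 4 fell after CHIRON removal. Shmt2, the mitochondrial serine hydroxymethyltransferase, rose after PD03 removal (0.26 and 0.31) and fell after CHIRON removal (-0.23 and -0.30).

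Of 9 glycogen genes 3 fell on soft and 7 on stiff after PD03 removal (beside 15.3% and 19.9% of all genes), with the phosphoglucomutase Pgm2 from 11.4 to 7.29 CPM on soft and 10.9 to 5.20 CPM on stiff, group means of 2 libraries. In that experiment 0 of the 9 were called between soft and stiff at 12 h and 0 in the difference in response at 12 h. After CHIRON removal Gys1, a glycogen synthase gene, was the glycogen gene that rose, from 97.8 to 183 CPM on soft and 92.6 to 183 CPM on stiff (log2 fold changes 0.90 and 0.98, edgeR adjusted p = 1.01e-07 and 4.04e-08). Of 9 gluconeogenesis and anaplerosis genes 7 were tested, of which 1 rose and 2 fell on soft and 1 rose and 1 fell on stiff after PD03 removal, and 1 rose on each after CHIRON removal, the fructose bisphosphatase Fbp2 (0.95 and 0.90). Of 21 other glycolysis and pyruvate genes 13 were tested after PD03 removal, of which 0 rose and 1 and 3 fell, and 16 after CHIRON removal, of which 1 and 0 rose and 1 and 1 fell. Pdp2, a phosphatase that reactivates pyruvate dehydrogenase and so opposes the Pdk kinases, fell in both experiments, by log2 fold changes of -0.27 and -0.44 after PD03 removal and -0.80 and -0.90 after CHIRON removal.

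Hypoxia response genes outside glycolysis (18, of which 15 were tested) had 7 higher (beside 9.18% of all genes on soft and 8.46% on stiff) and 1 lower (8.63% and 8.33%) on each substrate after CHIRON removal, with medians of 0.39 on soft and 0.28 on stiff beside -0.01 for all genes on each. Bnip3, a mitophagy receptor, went from a group mean of 3.35 to 20.6 CPM on soft and from 4.59 to 19.0 CPM on stiff (log2 fold changes 2.62 and 2.05, edgeR adjusted p = 8.63e-09 and 1.69e-07), and Ndrg1 from 11.3 to 28.1 CPM and 11.2 to 25.7 CPM (1.31 and 1.20). Egln3, a prolyl hydroxylase that marks HIF proteins for degradation, fell (-1.34 and -1.23). After PD03 removal 1 rose and 7 fell on soft and 1 rose and 4 fell on stiff, with Egln3 higher (0.38 and 0.73) and Ndrg1 lower (-0.57 and -0.59). Of 11 regulators 3 rose and 2 fell on soft and 5 rose and 2 fell on stiff after PD03 removal, and 2 rose and 4 fell on each substrate after CHIRON removal. Lin28a, an RNA-binding protein, and Myc, a transcription factor known to act on glycolysis genes, rose after PD03 removal (1.59 and 1.82 for Lin28a, 1.40 and 1.67 for Myc) and fell after CHIRON removal (-2.12 and -1.83 for Lin28a, -2.30 and -1.53 for Myc). Epas1, which encodes the hypoxia factor HIF2A, rose after CHIRON removal (1.24 and 1.22, edgeR adjusted p = 1.78e-08 and 2.38e-08), as did Mycn (0.79 and 0.75). The hypoxia factor genes Hif1a and Arnt, of the same list, were called on neither substrate after CHIRON removal. After PD03 removal, on both substrates, Hif1a was called lower and Arnt higher (0.25 and 0.23 for Arnt).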

How the data were processed

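The deposited values were raw gene counts, which the authors made from trimmed RNA-seq reads with TopHat2 2.1.0 and featureCounts 1.5.0 on mm10 (submitters' processing notes, which also name Trim Galore and DESeq2). Of the deposited columns, 12 belong to samples of no group here and were not used, and 23 rows without a gene name held 0 counts. Gene types and lengths came from a GENCODE annotation, which matched 34890 and 48349 genes, 19323 and 21695 of them protein-coding. Each experiment was fitted alone in R 4.3.3 with edgeR 4.0.16: protein-coding genes, TMM, filterByExpr (minimum count 10, minimum total 15), 1 coefficient for each substrate and time, quasi-likelihood tests, Benjamini-Hochberg adjustment over all genes tested and a threshold of 0.05. The scripts were tested on simulated data. The response test is the change from 0 h on soft minus that on stiff. Alternatives were DESeq2 1.42.0, its size factors, no filter, all genes, only the groups compared, a block for replicate number, each library left out, and counts of copies (BLAST 2.17.0) added. After CHIRON removal the discarded library was also kept, and the last digit of the tube name in the sample descriptions was also used as a block. The members and lists were chosen with earlier results of these data known. Values in every library are printed for Gapdh, the 6 members of each experiment with the largest changes, by the mean size over both substrates, called in the same direction on both at 12 h, members called between substrates or at 2 h, and some of their isozymes, these not at every time. Replicates were not duplicates: their chi-square per degree of freedom was 2.24 to 19.7.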

Additional observations from a re-analysis of the deposited data

How the results depend on the processing

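Of 18 counts of members called, 10 were within 1.5 times the reported count under every alternative that could be fitted, and of 226 alternative counts 205 were. These numbers say little of stability, because 11 of the 18 counts were 0 and could not fall. Among the counts above 0, only that of 11 members for PD03 removal at 12 h on soft stayed within 1.5 times. The counts that moved further were as follows. For PD03 removal at 2 h on soft the count of 2 became 1 with DESeq2, 1 with all genes and 1 to 2 with a library left out. At 2 h on stiff 1 became 2 with no filter on low counts, 0 with only the groups compared and 0 to 1 with a library left out. At 12 h on stiff 16 became 9 to 11 with a library left out. Between soft and stiff, with no filter, 0 became 1 at 0 h (Aldoc) and 1 at 2 h (Pfkfb2), and the 2 at 12 h became 0 to 1 with a library left out. For CHIRON removal at 12 h, 12 on soft and 11 on stiff became 3 and 3 with the discarded library kept, where edgeR called 457 and 461 genes in all. Fewer libraries were fitted where one was left out, and otherwise the cause was not tested.

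Among the named members, 30 log2 fold changes that passed the test kept their direction in all 354 alternative fits. In 31 of the 354 fits, 18 of them with a library left out, the change no longer passed, which concerned 13 results. Of these 7 were after PD03 removal, and the 6 after CHIRON removal were Tpi1, Ldha and Pdk2 on soft and stiff with the discarded library kept, an alternative chosen for single members after seeing the data (log2 fold changes 1.10 and 0.96 for Tpi1, 0.95 and 0.84 for Ldha and 0.74 and 0.69 for Pdk2, edgeR adjusted p from 0.0593 to 1.0). Adding the counts of copies, an alternative chosen after seeing the data, ended the call of Gapdh on stiff (0.06, edgeR adjusted p = 0.257). It also put Gapdh first by level at 0 h after PD03 removal (598 CPM per kb), ahead of Pkm (332) and Aldoa (299).

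Replicate numbers gave no sign of pairing: deviations from the group means of libraries with the same number had a mean correlation of -0.00278 over 15 pairs of groups after PD03 removal and -0.0198 over 10 after CHIRON removal. With the replicate number as a block the counts were 2, 1, 11 and 16 for 2 h soft, 2 h stiff, 12 h soft and 12 h stiff after PD03 removal and 0, 0, 12 and 11 after CHIRON removal, and the block changed no call of a named member. The lone CHIRON removal library on stiff at 2 h could not be left out. A library left alone in its group was assumed to vary like the other groups. Depth limits Slc16a3, Eno2 and Pdk2 most, which held as few as 14, 13 and 11 counts in a PD03 removal library.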

Other observations

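The library left out, on stiff at 2 h after CHIRON removal, held 171333 counts, of which 113 (0.0660%) fell on the 36 genes and 56.7% on protein-coding genes. The other library of that group held 26501943 counts, with 0.953% on the 36 genes and 83.1% on protein-coding genes.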
